A study of Mus musculus with 2 samples.

Results

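The cytosolic ribosomal protein genes code for the proteins of the ribosome that translates mRNA outside mitochondria. They were taken as every row of the deposited gene tables whose symbol is Rpl or Rps followed by a number with at most 1 letter a, x or l, or is Rplp0, Rplp1, Rplp2 or Rpsa, with symbols marked as pseudogenes by -ps left out. This gave 81 of 26082 genes, 49 of the large (60S) subunit and 32 of the small (40S) subunit. RNA was measured in primary mouse fibro-adipogenic progenitors (FAPs), the mesenchymal cells of skeletal muscle that can become adipocytes. The labels give wild-type cells, transfected either with plasmids that overexpress TGFBR3 or, as the control, with vector, and both libraries are labelled as under adipogenic differentiation, for which the medium is given with FBS at 20%, insulin at 10 μg/ml, IBMX at 0.5 mM and dexamethasone at 0.25 μM. There was 1 library per condition, so the spread between replicates is unknown and p-values are left out. Total counts were 62321027 for the library labelled TGFBR3 OE and 83779203 for the library labelled control.

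Each ribosome holds 1 copy of most of its proteins, assembled on ribosomal RNA in the nucleolus, and the genes for these proteins are among the most highly expressed of any growing cell. Their mRNAs are known as TOP mRNAs because they begin with a C followed by an unbroken run of pyrimidines, through which the mTOR pathway and the binding protein LARP1 control their translation and stability. Each mammalian ribosomal protein also has many processed pseudogenes, copies of its mRNA inserted elsewhere in the genome, so that short reads can be hard to assign to the working gene.

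Promoters of members from both ends of the range of values given below are printed to show the pyrimidine runs around their annotated start sites. The windows run from 60 bases before to 20 bases from the RefSeq start site on (GRCm38.p6), on the strand of the gene, in lower case, with pyrimidine runs of 8 or more bases and the ETS factor motif CCGGAAG on either strand in capitals. The first 3 belong to the members with the lowest ratios among those with a single RefSeq window, and the last 3 to those with the highest, so that these genes were chosen by their values.
Rpl13a, chr7:45128726-45128805, minus strand: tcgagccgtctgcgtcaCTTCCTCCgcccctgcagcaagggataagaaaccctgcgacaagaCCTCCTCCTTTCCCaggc
Rps27, chr3:90213629-90213708, minus strand: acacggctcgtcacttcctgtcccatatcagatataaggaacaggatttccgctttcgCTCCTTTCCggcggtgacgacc
Rpl38, chr11:114668520-114668599, plus strand: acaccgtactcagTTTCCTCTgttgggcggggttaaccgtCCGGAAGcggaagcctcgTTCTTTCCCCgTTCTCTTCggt
Rpl26, chr11:68901506-68901585, plus strand: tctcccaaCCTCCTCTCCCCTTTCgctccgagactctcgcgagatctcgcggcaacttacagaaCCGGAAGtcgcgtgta
Rpl4, chr9:64173327-64173406, plus strand: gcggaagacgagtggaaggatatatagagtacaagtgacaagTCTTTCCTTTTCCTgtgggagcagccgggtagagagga
Rpl7a, chr2:26910747-26910826, plus strand: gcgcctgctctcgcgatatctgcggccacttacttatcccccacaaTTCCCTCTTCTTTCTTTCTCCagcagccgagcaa
A marked run spans the annotated start in Rps27, Rpl38 and Rpl7a, whereas it begins just after the start in Rpl13a, with another upstream, and lies wholly upstream in Rpl4 and Rpl26. An annotated start can differ from the one used in these cells.
RefSeq windows of 250 bases before to 50 bases after the start were matched for 59 of the 81 members. A pyrimidine run of at least 8 bases lay between 40 bases before and 50 bases after the start in 50 of the 59 (84.7%), compared with 36.0% of 27025 genes with such a window. CCGGAAG stood on either strand of the whole window in 25 of the 59 (42.4%, against 9.93% of all genes), the YY1 motif CCATNTTG in 9 (15.3%, against 5.85%) and the SP1 motif GGGCGG in 35 (59.3%, against 38.2%). Among 8228 expressed genes (mean FPKM of at least 1), these shares were 33.8% for the pyrimidine run, 21.6% for CCGGAAG, 7.74% for CCATNTTG and 71.4% for GGGCGG. The reverse complement of CCGGAAG is itself rich in pyrimidines and can overlap a run. The median log2 ratio between the libraries, described below, was −0.40 for members with and −0.41 for members without the pyrimidine run, −0.36 and −0.42 for CCGGAAG, −0.42 and −0.40 for CCATNTTG, and −0.42 and −0.28 for GGGCGG.

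Ribosomal protein mRNAs were lower in the library labelled TGFBR3 OE than in the library labelled control. FPKM, the count of a gene scaled by the length of its exons and by a library total, was lower there for 74 of the 81 members, whereas 36.7% of the 11213 expressed genes, those whose mean FPKM was at least 1, were lower. The median log2 ratio of (FPKM + 1), library labelled TGFBR3 OE over library labelled control, was −0.39 over the members, or 0.763-fold. It was 0.14 over all genes, so that the members lay 0.53 log2 units below the median gene. The median was −0.36 for the large subunit and −0.41 for the small subunit, a difference of 0.05, and the members spanned −0.79 to 0.46. Every one of the 81 members had a mean FPKM of at least 1, and 53 had an FPKM above 100 in both libraries.

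**Figure D1:**
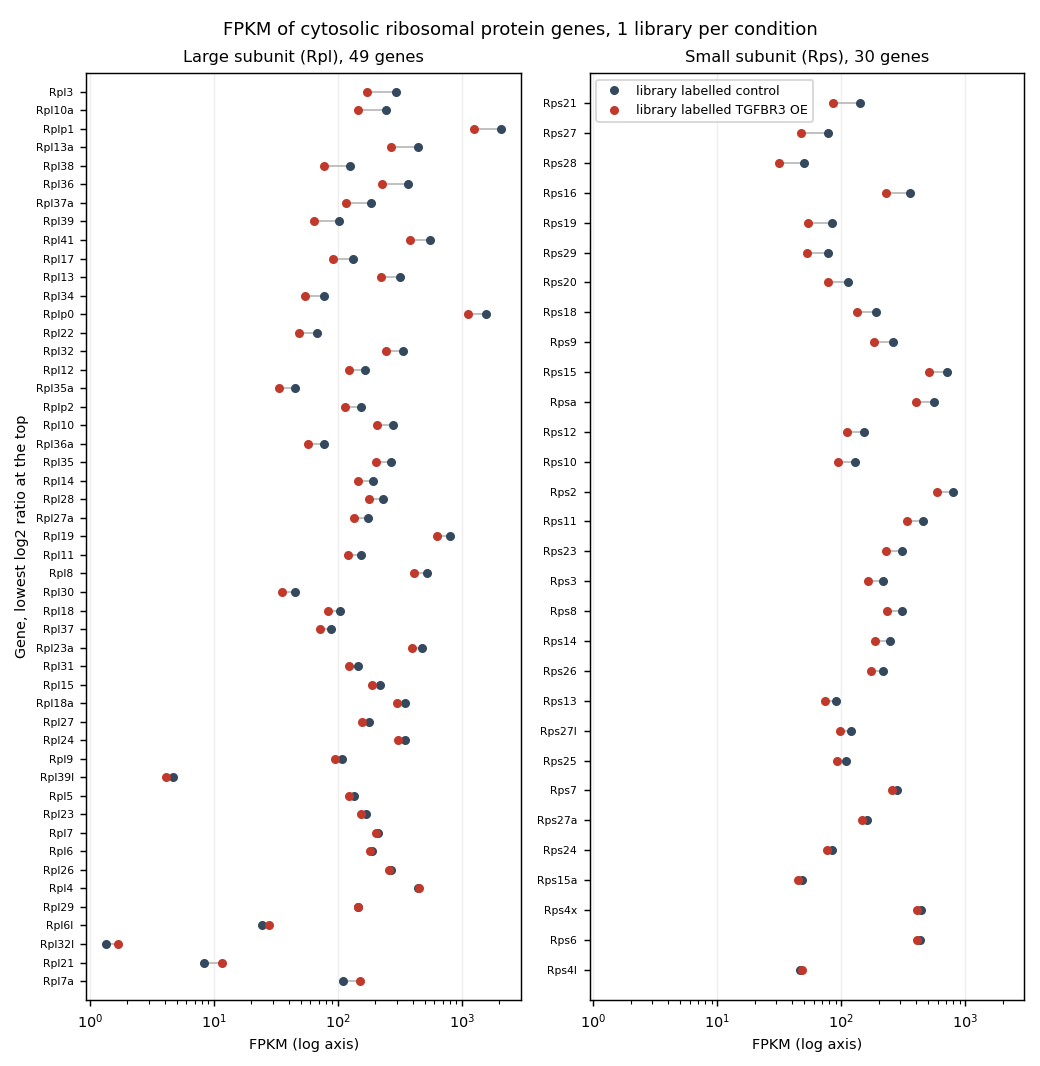
FPKM (log axis) of 49 large subunit and 30 small subunit genes in the library labelled TGFBR3 OE (red) and the library labelled control (dark), with genes ordered from the lowest log2 ratio at the top. The red point lies to the left for 72 of the 79 genes drawn, and the bottom rows of the large subunit (Rpl7a, Rpl21, Rpl32l, Rpl6l) hold those with the red point farthest to the right.

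A change of 1.5-fold was passed downwards by 13 members (background 4.91% of all genes) and upwards by 0 members (background 13.3%). On this scale of FPKM, no member passed 2-fold in either direction (background 1.03% lower and 3.14% higher). Of the 13 members at least 1.5-fold lower, 8 belong to the large subunit and 5 to the small. The exact 95% counting interval of the ratio lay wholly below 0 for 73 members (29.9% of all genes), wholly above 0 for 3 (55.0%) and included 0 for 5. These intervals cover counting error only and compare the 2 libraries, not the conditions. In all, 77 members lay below the median gene (50.0% of all genes by construction).

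Tgfbr3, the gene named in the label, did not differ as its label says. It had an FPKM of 36.9 in the library labelled TGFBR3 OE and 35.1 in the other (16372 and 21245 counts), with a log2 ratio (0.07, 95% CI 0.04 to 0.10) below that of the median gene. For this reason each library is called by its label throughout, and directions are those of the labels. Whether the plasmid's sequence would be counted in the mouse gene's row is not given in the sources used here. The paper also measured TGFBR3 by real-time PCR in FAPs given the plasmids or vector, and its text gives no values from this. Among the cell type markers, 8 of 9 FAP markers were expressed, with a summed FPKM of 1738 in the library labelled TGFBR3 OE and 1954 in the library labelled control. The log2 ratios of these 8 ran from −1.12 to 0.52, and 6 lay below 0 (36.7% of all genes). By 1.5-fold, 3 were lower (4.91% of all genes) and 0 higher (13.3%). All 4 adipocyte markers were expressed, with a summed FPKM of 34.8 and 68.0. The 2 muscle cell markers with rows summed to 1.13 and 0.81, the endothelial markers to 2.1 and 2.02 and the leukocyte markers to 3.40 and 2.43, with 3 of the 5 leukocyte markers (Ptprc, Adgre1 and Tyrobp) listed at an FPKM of 0. In bulk RNA, fewer cells of a type and less RNA per cell cannot be told apart. The part of the FAP and adipocyte markers in the result was not tested.

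Over all genes the ratio was slightly lower at higher expression (Spearman −0.18 with mean FPKM), so the members were set beside genes of like expression, defined as the 306 other genes with a mean FPKM between the members' quartiles of 95.8 and 273. These genes had a median log2 ratio of −0.13, and the members lay 0.26 log2 units lower. The ratios of the members were also closer together, with an SD of 0.25 over the 81 members and 0.59 over the 306 genes. Of the genes of like expression, 37 (12.1%) were at least 1.5-fold lower and 28 (9.15%) at least 1.5-fold higher, compared with 13 (16.0%) and 0 of the members. Below 0 lay 62.4% of the genes of like expression and 91.4% of the members. In protein-coding genes of like expression the median was −0.13, and in the 405 other genes at a mean FPKM of 100 or more it was −0.17.

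**Figure D2:**
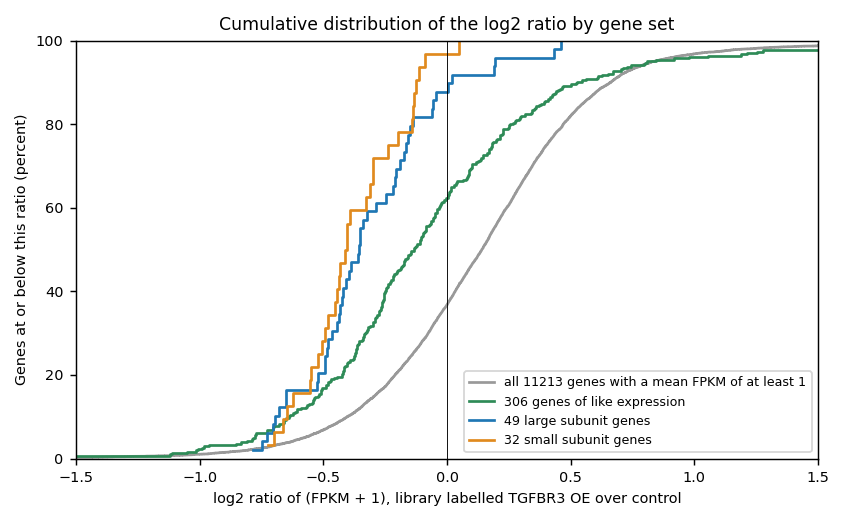
Cumulative share of genes (percent) at or below each log2 ratio of (FPKM + 1), library labelled TGFBR3 OE over control, for all 11213 genes, 306 genes of like expression, 49 large subunit genes and 32 small subunit genes; the x axis is cut at −1.5 and 1.5. Over the middle of the range the curves of both subunits lie to the left of the other curves, and the medians are −0.36 (large), −0.41 (small), −0.13 (like expression) and 0.14 (all genes).

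The members took up a smaller part of the library labelled TGFBR3 OE. They held 1913214 of its counts, or 3.07% (95% CI 3.066 to 3.074, exact), and 3367456 counts of the library labelled control, or 4.02% (95% CI 4.015 to 4.024). Of the summed FPKM they held 5.72% in the library labelled TGFBR3 OE and 7.17% in the library labelled control, a difference of −1.45 percentage points. The large subunit genes made up 4.56% of the summed FPKM in the library labelled control and 3.61% in the other, and the small subunit genes 2.61% and 2.11%. The balance of the subunits was close in both libraries, with 1.75 and 1.71 times as much summed FPKM in large as in small subunit genes. The order of the genes was also close, with a Spearman correlation of 0.98 between the members' FPKM in the libraries, which describes 81 genes in a single pair of libraries. A ribosomal RNA row (ENSMUSG00000106106, chromosome 17) held 0.250% of the counts of the library labelled TGFBR3 OE and 1.15% of the other, and leaving it out gave member shares of 3.08% and 4.07%.

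The lowest ratio was that of Rpl3 (ENSMUSG00000060036, chromosome 15 of mm10, 80077791 to 80091868), a large subunit protein close to the peptidyl transferase centre. Rpl3 had an FPKM of 170.1 in the library labelled TGFBR3 OE and 294 in the library labelled control, from 36645 and 86224 counts. On the log2 scale it stood at −0.79 (95% CI −0.80 to −0.77), with 2.18% of all expressed genes lower. It was followed by Rpl10a, of the L1 stalk beside the tRNA exit site, with an FPKM of 144 and 243 (log2 ratio −0.75, 95% CI −0.77 to −0.73), and by the stalk protein gene Rplp1. Rps21, of the small subunit, had an FPKM of 85.2 and 141 (−0.72, 95% CI −0.77 to −0.67). Rpl13a, whose promoter is printed above and whose protein is also known as a translational repressor in inflammation, had an FPKM of 269.3 and 439 (−0.70, 95% CI −0.72 to −0.69). Its exons overlap those of Gm45713 and Mir5121 on the same strand, and an antisense gene overlaps Rpl10a.

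At the other end stood Rpl7a (ENSMUSG00000062647, chromosome 2, 26910764 to 26913318), with an FPKM of 151 in the library labelled TGFBR3 OE and 109.6 in the library labelled control, from 18289 and 18037 counts, a log2 ratio of 0.46 (95% CI 0.43 to 0.49). Rpl21 had an FPKM of 11.6 and 8.31 (0.43, 95% CI 0.36 to 0.51), the lowest level of all members outside the paralogs and pseudogenes. The next 3 were the rows Rpl32l (0.19, 95% CI −0.17 to 0.56), Rpl6l (0.19, 95% CI 0.10 to 0.28) and Rps4l (0.05, 95% CI −0.02 to 0.12), all of which GENCODE M21 annotates as processed pseudogenes. Rpl6l turned to −0.02 on TMM-scaled CPM and −0.06 on median-of-ratios CPM, scalings that lower all genes together. Rpl32l had 46 and 50 counts. Rpl7a and Rpl21 were thus the only working ribosomal protein genes whose counting interval lay above 0.

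Levels spread widely among the members. The 5 with the highest mean FPKM were Rplp1 (1252 in the library labelled TGFBR3 OE, 2076 in the other), Rplp0 (1127 and 1578), Rpl19 (626 and 801), Rps2 (591 and 800.4) and Rps15 (509 and 718), and each was lower in the library labelled TGFBR3 OE. Rps15 codes for a protein of the small subunit's head and had a log2 ratio of −0.49 (95% CI −0.52 to −0.47), or −0.24 with the GC trend removed. FPKM here divides by the summed length of all exons, which was a median of 2.31 times the length of the coding transcripts and up to 11.9 times, so the order of the levels is only approximate.

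The stalk of the large subunit, which recruits the elongation factors, was lower in all 4 of its members. Of all members 91.4% were lower, and of all genes 36.7%. Rplp1, one of its acidic proteins, had a log2 ratio of −0.73 (95% CI −0.75 to −0.71). Rplp0, which anchors the acidic proteins to the ribosome, had 126843 and 241804 counts and a ratio of −0.48 (95% CI −0.49 to −0.47). Rplp2, the partner of Rplp1, had an FPKM of 114 and 154, with a ratio of −0.43 (95% CI −0.46 to −0.40). Rpl12, at the base of the stalk, had an FPKM of 122 and 167 and a ratio of −0.44 (95% CI −0.46 to −0.42). The group's median was −0.46, and the Rplp1 interval did not overlap those of the other 3.

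Rpl5 and Rpl11 form a particle with the 5S ribosomal RNA before it joins the large subunit, and outside the ribosome this particle is known to inhibit Mdm2. Rpl11 had an FPKM of 121 in the library labelled TGFBR3 OE and 155 in the library labelled control, a log2 ratio of −0.35 (95% CI −0.38 to −0.33). Rpl5 had 122 and 135, a ratio of −0.15 (95% CI −0.17 to −0.13). Once the trend with GC content described below was taken out, the order turned, with −0.55 for Rpl5 and −0.37 for Rpl11.

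Around the exit of the peptide tunnel, where signal recognition particle and chaperones bind, all 5 members were lower, beside 91.4% of all members and 36.7% of all genes. Their median log2 ratio was −0.25. Rpl35 had an FPKM of 204 and 270.3 (−0.41, 95% CI −0.43 to −0.38), and Rpl19 had a ratio of −0.36 (95% CI −0.37 to −0.34). Rpl23a had 399 and 474 (−0.25, 95% CI −0.27 to −0.22), and Rpl31 had 124 and 144 (−0.22, 95% CI −0.25 to −0.19). Rpl26, known also for binding the mRNA of p53, stood nearest to 0 with 258 and 266 (−0.04, 95% CI −0.07 to −0.02). With the GC trend removed, Rpl23a was at −0.52, below Rpl19 (−0.43), Rpl31 (−0.35) and Rpl35 (−0.28), and Rpl26 was still nearest to 0 at −0.07.

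Along the path of the mRNA through the small subunit, the 5 members had a median of −0.41. Rps28, at the mRNA exit, had an FPKM of 31.4 and 50.4 (−0.67, 95% CI −0.72 to −0.61). It was the only member of the group at least 1.5-fold lower, beside 16.0% of all members and 4.91% of all genes. Rps3 also passed that fold (−0.61) with the GC trend removed, where 24 members and 5.95% of all genes passed it. Rps2 and Rps3, at the mRNA entry, had ratios of −0.44 (95% CI −0.45 to −0.42) and −0.41 (95% CI −0.42 to −0.39). On TMM-scaled CPM, Rps2 (−0.66) and Rps3 (−0.63) also passed 1.5-fold, but there 42 members and 12.2% of all genes were that much lower. Rps26, which touches the mRNA upstream of the start codon, had 174 and 219 (−0.33, 95% CI −0.35 to −0.30).

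Rps6, the substrate of S6 kinase downstream of mTOR, was among the members nearest to 0, with an FPKM of 406 in the library labelled TGFBR3 OE and 432 in the library labelled control (−0.09, 95% CI −0.11 to −0.07). Rps27a, made as a fusion with ubiquitin, had 147 and 162 (−0.14, 95% CI −0.17 to −0.11). Both lay below the median gene, and with the GC trend removed Rps6 was at −0.11 and Rps27a at −0.40.

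Loss of 1 copy of some members causes Diamond-Blackfan anaemia, a failure of red cell production. The 10 such members listed were lower, with a median of −0.32, beside 91.4% of all members and 36.7% of all genes. Members outside this list were not checked for a link to the disease. Rps19, the gene most often affected in that disease, had an FPKM of 53.9 and 83.5 (−0.62, 95% CI −0.65 to −0.60). It was the only 1 of the 10 listed at least 1.5-fold lower, beside 16.0% of all members and 4.91% of all genes. Rps10 (94.2 and 129, −0.45) and Rpl35a (33.2 and 45.2, −0.44) came next, before Rpl11 and Rps26 given above. Rps7 (255 and 282, −0.14) and Rps24 (76.3 and 83.8, −0.13) lay with Rpl5 and Rpl26 nearer to 0. Removal of the GC trend moved Rps7 to −0.33 and Rps24 to −0.40, and it took Rpl35a to −0.70, past 1.5-fold and below Rps19 (−0.62). On TMM-scaled CPM, Rps10 (−0.67) and Rpl35a (−0.66) also passed 1.5-fold. That fold was passed downwards by 24 members (5.95% of all genes) with the GC trend removed and by 42 (12.2%) on TMM-scaled CPM.

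Of the paralogs of other members, Rpl39l had an FPKM of 4.09 and 4.68 (−0.16, 95% CI −0.36 to 0.04), whereas its parent Rpl39 had 64.4 and 101.5 (−0.65, 95% CI −0.69 to −0.61). Rps27l, known as a p53 target, had 96.9 and 119 (−0.30, 95% CI −0.35 to −0.25), and its parent Rps27 had 47.5 and 77.7 (−0.70, 95% CI −0.76 to −0.64). The intervals of both paralogs lay above those of their parents. With the GC trend removed, Rpl39l (−0.50) still lay above Rpl39 (−0.85), whereas Rps27l (−0.74) and Rps27 (−0.78) were no longer apart beyond their counting intervals. Rpl39 and Rps27 were named here as the parents after their values were seen. Rpl3l and Rpl10l were not analysed here. Without the 5 paralog and pseudogene rows, 72 of 76 members lay below 0, including 30 of 30 in the small subunit and 42 of 46 in the large subunit, and the median was −0.40.

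Reads of a ribosomal protein gene and its pseudogenes may be split between their rows or counted in several. A median of 25.3% of a member's 31-base words, from 1.05% to 94.1%, also occurred in other genes. To see the split, the counts of each member were added to those of the pseudogene rows that hold at least 50% of their 31-base words in that member, a step chosen after the values were seen. There were 295 such rows for 67 members, and they held 11.2% of the joint counts in the library labelled TGFBR3 OE and 9.41% in the other. Of the 229 expressed pseudogene rows, 85 lay below 0 and the median log2 ratio was 0.13, close to that of all genes. The joint ratios had a median of −0.34, and 77 of 81 lay below 0, with 11 at least 1.5-fold lower and 0 at least 1.5-fold higher. Of all expressed genes, by FPKM, 36.7% lay below 0, 4.91% were at least 1.5-fold lower and 13.3% at least 1.5-fold higher.

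The joint counts turned the direction of the members that had stood highest. For Rpl7a, the gene's own row had a log2 ratio of 0.47 on scaled counts, whereas its 18 pseudogene rows, which held 66.0% of the joint counts in the library labelled control, had −0.88, and together they gave −0.27. Among them, Rpl7a-ps11 had an FPKM of 102 and 194 (−0.92) and Gm8226 had 95.5 and 193 (−1.01). For Rpl21, the own row had 0.48, its 19 pseudogene rows held 91.5% of the joint counts with −0.19, and the joint ratio was −0.12. Of these, Gm10163, Gm13370 and Gm10240 had nearly equal counts, at 3270, 3293 and 3293 in the library labelled TGFBR3 OE and 5338, 5363 and 5396 in the other. How reads that match several rows were counted is not given in the sources used here, and if they were counted in each, the joint sums hold them more than once. Rpl29 moved from 0.02 to −0.10. Rpl17 moved the other way, from −0.53 for its own row to −0.07, since its 10 pseudogene rows held 65.0% of the joint counts with a ratio of 0.13. The joint values above 0 were those of Rpl4 (0.00), Rps4l, Rpl6l and Rpl32l, none of which had pseudogene rows of its own. Rps4l, Rpl6l and Rpl32l, themselves annotated as processed pseudogenes, were kept as members and were not added to a parent. The genes named in this comparison outside Rpl7a, Rpl21 and the 3 pseudogene members were chosen after their values were seen.

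**Figure D3:**
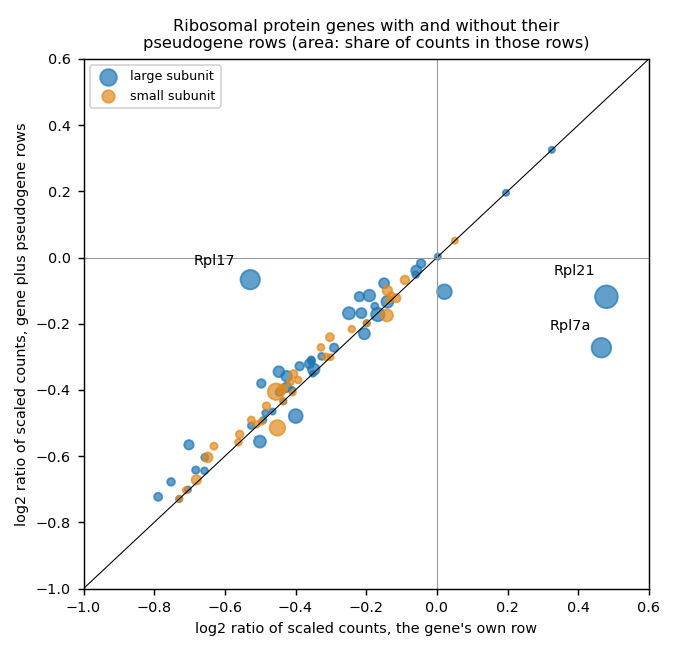
Log2 ratio of scaled counts (library labelled TGFBR3 OE over control) of each member's own row (x axis) and of the member summed with its pseudogene rows (y axis), with the area of a point growing with the share of joint counts in those rows in the library labelled control. Most points lie near the line of equality, while Rpl7a and Rpl21 drop from 0.47 and 0.48 to −0.27 and −0.12 and Rpl17 goes from −0.53 to −0.07.

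Ribosomal proteins whose symbols fall outside the rule were mostly lower too. Their 7 genes had a median of −0.47, with 6 below 0, 1 at least 1.5-fold lower and 0 higher. The backgrounds were 36.7%, 4.91% and 13.3% of all genes. Fau, which codes for a small subunit protein fused to a ubiquitin-like part, had an FPKM of 243 and 357 (−0.55). Rpl22l1, the paralog of Rpl22, had 5.40 and 9.99 (−0.78, 95% CI −0.89 to −0.67). Rps3a1, of the small subunit, had 569.6 and 592 (−0.05), and Rpl7l1, a paralog of Rpl7 that works in assembly, had 32.8 and 24.2 (0.43).

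Other genes of translation were spread on both sides. The 19 elongation factors and other genes with TOP mRNAs had a median of −0.05, with 2 at least 1.5-fold lower and 2 higher, from Eif3f (64.2 and 99.1, −0.62), Eef1b2 (134 and 205, −0.61) and Tpt1 (425 and 628, −0.56) up to Npm1 (101 and 60.6, 0.73) and Eif3e (34.4 and 20.2, 0.74). The 27 initiation factors had a median of 0.34, with 0 at least 1.5-fold lower and 7 higher (25.9%). They do not include Eif3e, Eif3f, Eif3h, Eif3k, Eif3l and Eif4b, which were listed with the TOP mRNA genes. Of all genes, 4.91% were lower and 13.3% higher by that fold, compared with 10.5% each way in the 19 TOP mRNA genes. Eif4e, which binds the mRNA cap, had an FPKM of 17.2 in the library labelled TGFBR3 OE and 8.68 in the library labelled control (0.91), and Eif5 had 28.3 and 14.0 (0.97).

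Ribosome biogenesis genes stood opposite to the ribosomal proteins. Of 54 such genes, 22 were at least 1.5-fold higher and 0 were lower, beside the backgrounds of 13.3% and 4.91%, and the median was 0.49. Nop14, needed for processing of the small subunit RNA, had an FPKM of 20.3 and 7.52 (1.32, 95% CI 1.25 to 1.39), Rpf2, which brings the 5S particle to the large subunit, had 6.03 and 2.23 (1.12), and nucleolin (Ncl) had 30.4 and 14.4 (1.03). The lowest was Nop10, of the box H/ACA particles, with 12.5 and 17.3 (−0.44). Mitochondrial ribosomal proteins, which form a separate ribosome, had a median of 0.12 over 78 genes, near that of all genes, with 4 lower and 10 higher by 1.5-fold, from Mrpl54 (−0.92) to Mrpl1 (1.12). Of the regulators of ribosomal protein mRNAs, 10 of 12 were expressed with a median of 0.41, and Larp1, which binds the TOP sequence, had an FPKM of 21.4 and 14.7 (0.51). The -ps rows had a median of 0.15 over 110 expressed of 222, with 6 lower and 23 higher by 1.5-fold.

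**Figure D4:**
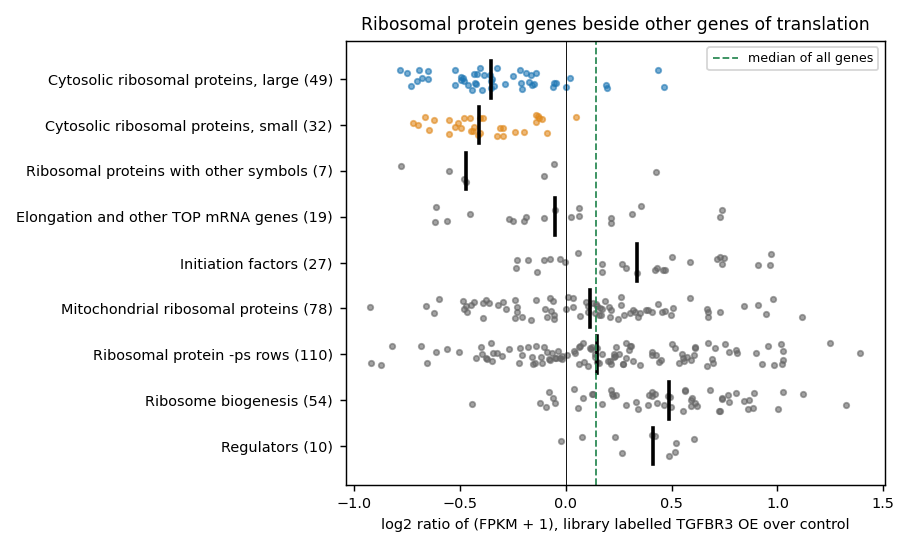
Log2 ratio of (FPKM + 1), library labelled TGFBR3 OE over control, of each gene (points) and the median (black bar) for the large and small subunit genes and for 7 lists of related genes, with the number of expressed genes in parentheses; vertical jitter has no meaning. The medians of the cytosolic ribosomal protein groups (−0.36, −0.41 and −0.47) lie left of 0, and ribosome biogenesis (0.49) and regulators (0.41) lie right of the median of all genes (0.14, dashed).

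A trend with base composition ran through the whole comparison. Over all genes the log2 ratio was lower where the GC content of the exons was higher. This content was taken over all annotated transcripts of a gene, so an exon in several transcripts counted several times. The median ratio went from 0.46 in the first of 20 bins of GC content to −0.25 in the last (Spearman −0.48 over 11207 genes). Among the 81 members the same correlation was −0.31, with a median ratio of −0.30 in the 41 members of lower and −0.43 in the 40 of higher GC content. With the trend removed, which also sets the median of all genes to 0, the median of the members was −0.45 and 75 of 81 lay below 0, whereas they lay 0.53 below the median gene before. The medians of initiation factors, biogenesis genes and regulators then were 0.13, 0.27 and 0.18, and that of the elongation and other TOP mRNA genes was −0.19, with 15 of 19 below 0 compared with 10 before. Members with shorter coding transcripts were somewhat lower, with a median of −0.43 in the 39 shorter and −0.36 in the 39 longer. The Spearman correlation with this length was 0.33 in the members, compared with 0.22 over 10084 genes. Among the members, the ratio showed little relation to FPKM (Spearman −0.12), exon length (0.08), the share of 31-base words in other genes (0.03) or the number of small nucleolar RNA genes inside the member (−0.03). These correlations describe genes of a single pair of libraries, which share depth and composition.

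**Figure D5:**
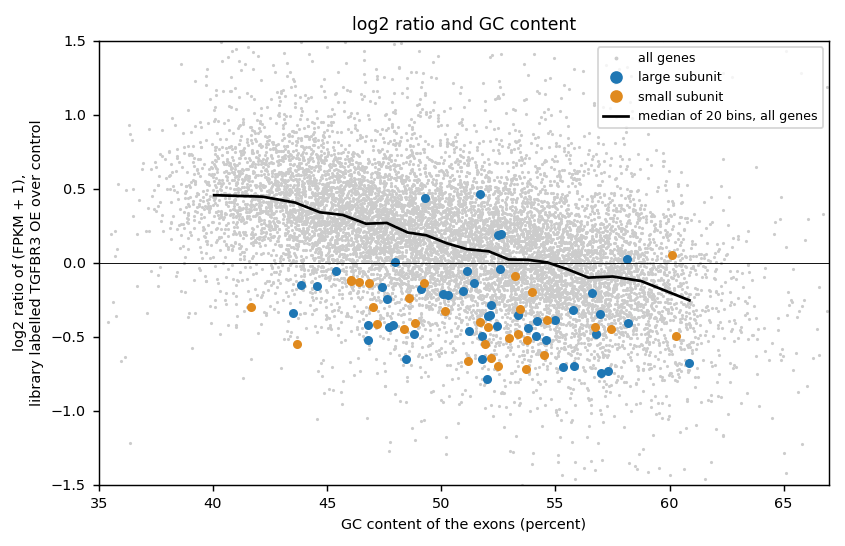
Log2 ratio of (FPKM + 1), library labelled TGFBR3 OE over control, against the GC content of the exons (percent), taken over all annotated transcripts of a gene. Points are all genes (grey), large subunit genes (blue) and small subunit genes (orange). The median of all genes in 20 bins of GC content is drawn as a line, and axes are cut at 35 and 67 percent and at −1.5 and 1.5. The line runs from 0.46 to −0.25, and most members lie below it over the whole range of their GC content.

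The members are scattered over 19 chromosomes, with 4 on X, and 58 share no exon sequence with an overlapping gene. The median of these 58 was −0.39. Exons of 6 members overlap another gene on the same strand and those of 18 an antisense gene, and whether counting used the strand is not given in the sources used here. Introns of 29 members hold 56 small nucleolar RNA genes, RNAs that guide modification of ribosomal RNA and are cut from the introns of their hosts. Of these, 55 had rows, which summed to 189 and 166 counts with at most 16 and 25 in a row.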

How the data were processed

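RNA of 2 libraries, 1 per condition, was sequenced as paired reads of 150 nt after poly(A) selection, per the labels. The authors deposited raw counts and FPKM per gene on mm10. The paper names STAR and FeatureCounts, whereas the submitters' processing notes list cutadapt 1.9, HISAT2 2.2.1, StringTie 2.1.6, DESeq2 and edgeR, and which of them made the values is not stated. For all 81 members, the deposited FPKM differed by less than 1% from the count over the exon length and over 1 total per library. Members, lists and role groups were chosen with earlier results of these data known.

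Libraries were compared by log2 ratios of (FPKM + 1), a scale on which changes of low genes are understated, over genes whose mean FPKM was at least 1. Exact Clopper-Pearson 95% intervals used the counts. Reads are not known to be independent molecules, and count models were not run for lack of replicates. The joint pseudogene ratios used counts divided by the totals implied by FPKM, without a pseudocount. Named members were those with the 5 highest and 5 lowest ratios, the 5 highest levels and all of the role groups. Other genes came from the extremes of their lists or, as said beside them, were chosen after their values were seen. Some genes are counted in the groups but not reported here by name or drawn with their names. Annotation came from GENCODE M21, promoters from RefSeq (GRCm38.p6). Python 3.11.15, pandas 2.3.3, scipy 1.17.1 and R 4.3.3 with edgeR 4.0.16 (TMM factors only) were used. The interval was tested only on simulated counts with counting error and no other variation, the case that it assumes. Alternatives were other pseudocounts, scalings, filters, thresholds, trend removal and member sets.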

Additional observations from a re-analysis of the deposited data

How the results depend on the processing

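The medians of the members kept their sign under every alternative run. On TMM-scaled CPM they were −0.61 (all), −0.58 (large) and −0.63 (small), with 42 members at least 1.5-fold lower (12.2% of all genes), and on median-of-ratios CPM −0.65, −0.61 and −0.66, with 47 lower (13.7%), while the median of all genes moved from 0.14 to −0.05 and −0.08. Centred on the median gene (a shift of 0.13) they were −0.52, −0.48 and −0.54, with 26 lower (8.09%). With the GC trend removed, which also centres all genes at 0, they were −0.45, −0.43 and −0.49, with 24 lower (5.95%), so relative to the median gene the members moved from −0.53 to −0.45, and with the exon length trend removed the median was −0.37 and the difference from genes of like expression −0.17. CPM of counts outside the members gave −0.42, −0.39 and −0.44. Summed with pseudogene rows, an alternative chosen after seeing the data like those that kept protein-coding members or members without overlaps, they were −0.34, −0.32 and −0.39. Against genes at a mean FPKM of 100 or more, the difference was −0.22. At 2-fold, 0 members were lower on the main scale. Rpl3 did pass 2-fold on TMM-scaled CPM (−1.009) and median-of-ratios CPM (−1.041), and Rpl10a on median-of-ratios CPM (−1.004). The members' share was 0.95 percentage points lower under CPM, a difference of −0.95, which is that of the count shares given above. TMM-scaled CPM and median-of-ratios CPM must give the same value, since a factor on a whole library leaves shares unchanged. No such share was computed for the other scalings. No member was at least 1.5-fold higher under any of these settings. Of 36 named members, the 31 below 0 stayed below 0 in all 279 values under 9 other pseudocounts, scalings and trend removals. A pseudocount cannot turn a sign, and the other scalings moved these members further down. Only the trend removals could have brought any of them above 0, so most of these values could not have come out otherwise. Of the 5 above 0, Rps4l was below 0 on TMM-scaled CPM (−0.17), on median-of-ratios CPM (−0.20), after centring (−0.08) and, by less than 0.01, after removal of the length trend, and Rpl6l was below 0 on TMM-scaled (−0.02) and median-of-ratios CPM (−0.06). From 74 to 78 of the 81 members lay below 0 under these settings, beside 36.7% to 56.6% of all genes. The 78 were reached on TMM-scaled and median-of-ratios CPM, where 54.3% and 56.6% of all genes lay below 0. No paired analysis was possible because each condition has 1 library, which also leaves no replicate to omit. Counting error is small at this depth, with a median interval width of 0.05 for the members, while the spread between replicates was not measured.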
